A study of Mus musculus with 16 samples.

Results

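The main effect of nerve injury on the dorsal root ganglion (DRG) transcriptome was read by setting all 8 libraries of nerve-injured mice against all 8 libraries of sham-operated mice, with the treatment (desipramine or saline) as a covariate in 1 additive model, so that the comparison takes in all 16 of the 16 libraries of the series. Each library came from the lumbar DRGs L3 to L6 of 1 male C57BL/6J mouse aged 3 to 4 months. In the 8 SNI libraries the mouse had received spared nerve injury, in which the common peroneal and sural branches of the sciatic nerve are ligated and cut and the tibial branch is spared, and the 8 sham mice had surgery without nerve injury. In 4 libraries of each kind the mouse then received desipramine (DMI, a tricyclic antidepressant that blocks noradrenaline reuptake) at 15 mg/kg by intraperitoneal injection 2 times per day for 3 weeks, and in the other 4 saline on the same schedule. All 16 mice were thus injected for 3 weeks. The labels and the results text of the study place the first injection 4 weeks after surgery, and its methods give the same figure in months. The side from which ganglia were taken was not given in the sources used here, and a ganglion holds both cut and spared neurons, so the values average over them. The groups are called SNI-Saline and Sham-Saline in the saline mice and SNI-DMI and Sham-DMI in the desipramine mice.

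DRG neurons carry touch, itch, temperature and pain signals from the periphery to the spinal cord. When their axons are cut, they switch on a programme led by transcription factors such as Atf3 and Jun, make growth-associated proteins and peptides that are scarce in uninjured adult ganglia, and lower many of the channels and receptors that define their type. Injured neurons also release Csf1, and macrophages, satellite glia and Schwann cells of the ganglion respond.

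Between 41194238 and 73920332 read pairs per library fell on genes, and 21371 of the 52636 listed genes passed the filter on low counts. Levels are given in CPM, a gene's count divided by the TMM-normalized library size and scaled as edgeR's cpm does. In the labels DRG is the cell type, but spinal cord is entered as the tissue, and markers of both were read. The sensory neuron genes Avil and Prph were at 824 to 1033 and 1436 to 1960 CPM in the 16 libraries. The oligodendrocyte genes Mog and Opalin did not exceed 0.749 and 0.168 CPM, and the motor neuron gene Chat did not exceed 0.0919 CPM. Not all such markers were this low. The astrocyte gene Aqp4 was at 7.53 to 13.45 CPM. The summed oligodendrocyte list, which includes Aspa, was at 44.3 to 76.65 CPM in sham and 50.1 to 87.4 in SNI libraries. The cells that gave these reads were not tested. Some libraries stood apart. Among the shams, Sham-DMI replicates 2 and 4 held 12.2 and 9.19 CPM of the injury gene Sprr1a, against 0.619 to 2.06 in the other 6, and at least 30.1 in every SNI library. Skeletal muscle transcripts were most abundant in SNI-DMI replicate 2 (Acta1 at 55.9 CPM), followed by SNI-Saline replicate 2 and Sham-Saline replicate 1. Of the called genes named below, those no longer called without the 3 libraries richest in muscle transcripts were Aldh1l1, Artn, Cacna1a, Cd163, Cntnap2, Col3a1, Elavl4, Emcn, Fam149a, Gdnf, Gm10224, Gm10925, Gm28437, Gm28523, Gm37784, Gm5734, H2-Eb1, Il34, Kcnj3, Klf7, Myh1, Ncmap, Ncr1, Nr4a1, Ntrk3, Oprl1, Oprm1, Pax5, Sc5d, Scn1a, Tgfb1, Thsd7a, Thy1, Zfp521, mt-Ta, mt-Tc and mt-Tn, and those no longer called without Sham-DMI replicates 2 and 4 were Artn, Cd163, Cd8a, Cntnap2, Col3a1, Cysltr2, Gm28523, Il31ra, Itgax, Ncr1, Nr4a1, Oprl1, Oprm1, Pax5, Sc5d, Scn1a, Tgfb1 and Thy1. The library numbers in the labels have a median of 28.5 in both surgery groups, but each group holds 1 unbroken run of numbers. In DMI mice these are 17 to 20 for sham and 21 to 24 for SNI, and in saline mice 37 to 40 and 33 to 36. Within a treatment the number and the surgery thus cannot be told apart.

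Nerve injury left 3220 genes different at an adjusted p under 0.1 by edgeR's quasi-likelihood test (15.1% of the genes tested). These are referred to as called. Of these, 1519 were higher in SNI (7.11% of genes) and 1701 were lower (7.96%). The balance shifted with the size of the change. When a log2 fold change of 0.32 or more in either direction was also required, 810 genes remained (3.79%), 582 of them higher and 228 lower. Between a log2 change of 1 and 2 there were 108 higher and 13 lower genes, and past 2 there were 33 higher and 0 lower. Among the genes that changed by less than 0.2 on the log2 scale, 578 were higher and 929 lower. The median absolute log2 fold change of the called genes was 0.21. The median log2 fold change over all genes tested was 0.00 under the TMM scaling, and upper-quartile scaling gave 1605 higher and 1601 lower genes. Large changes were thus mostly increases, and slight changes went both ways. Without the treatment covariate 776 genes were called, 464 higher and 312 lower, a share of higher genes of 59.8% against 47.2% with it.

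The count of calls depended on single libraries. Leaving out SNI-Saline replicate 2 gave 1691, Sham-DMI replicate 2 gave 1728, Sham-Saline replicate 1 gave 1877 and SNI-Saline replicate 1 gave 2067. The balance turned as well, with 1109 higher and 768 lower genes without Sham-Saline replicate 1, 1008 and 720 without Sham-DMI replicate 2, and a share of higher genes from 39.6% (without SNI-DMI replicate 4) to 59.1% over the 16 fits. Of the 3220 genes, 1444 stayed called in the same direction in every one of the 16 fits that left out 1 library (801 higher and 643 lower). Without Sham-DMI replicates 2 and 4 together 2371 genes were called, 2052 of them among the 3220, and without the 3 libraries richest in muscle transcripts 1217 were called, 1134 of them among the 3220.

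The increases are described from the genes with the smallest p. The 15 higher genes with the smallest p among those whose SNI values lay above the sham values within saline and within DMI mice included Ucn, Atf3, Gpr151, Ecel1, Cckbr, Fgf3, Star, Nts, Rhoc, Cd63, Stmn4, Npy, Sprr1a and Ctla2a. Of these, Ucn, Npy and Nts are on the list of injury-induced neuropeptides, Gpr151, Ecel1, Cckbr, Stmn4 and Sprr1a on the list of injured-neuron receptors and growth effectors, and Atf3 on that of regeneration-associated factors. Over all genes, 223 (1.04%) showed such a separation within both treatments in 1 direction, and 222 of them were called, 148 higher and 74 lower. In 78 genes (0.365%) no SNI library overlapped any sham library over both treatments, 71 of them higher and 7 lower in SNI. Of the 15 genes above, 13 were among the 71, and the exceptions were Rhoc and Cd63.

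Urocortin (Ucn, ENSMUSG00000038676, chromosome 5, 31138063 to 31138829 in GRCm38), a peptide of the corticotropin-releasing family, ran from 0.025 to 0.275 CPM in sham libraries (median 0.0862) and from 1.09 to 2.41 in SNI libraries (median 1.53). It had the smallest p of all genes, with a log2 fold change of 3.74 (adjusted p = 3.85e-07, SE 0.27), or 13.4-fold. All 8 SNI libraries lay above all 8 sham libraries, by a wide gap in a gene of low level. Neuropeptide Y (Npy, ENSMUSG00000029819, chromosome 6, 49822710 to 49829507) ran from 0.106 to 4.50 CPM in sham (median 1) and from 17.6 to 33 in SNI (median 23.1). Its log2 fold change of 4.15 (adjusted p = 2.93e-05, SE 0.45) was the largest of the 15. The 2 highest sham values were those of Sham-DMI replicates 2 and 4, at 4.50 and 3.34. Neurotensin (Nts, ENSMUSG00000019890, chromosome 10, 102481756 to 102490486) was at 8.62 to 38.7 CPM in sham and 52.0 to 91.5 in SNI, with a log2 fold change of 2.12 (adjusted p = 2.02e-05, SE 0.22). Galanin (Gal), a peptide that dampens sensory transmission, had medians of 27.2 and 44.1 CPM with overlapping ranges (log2 fold change 0.62, SE 0.14, adjusted p = 0.0149). Of the 7 injury-induced neuropeptide genes that passed the filter on low counts, out of 9 listed, 5 were called and all 5 were higher, with a median of 1.05 over the 7. Summed over the list, the SNI libraries held 216 to 345 CPM and the sham libraries 115 to 181, without overlap.

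Atf3 (ENSMUSG00000026628, chromosome 1, 191170296 to 191218039), the stress-induced transcription factor used to mark axotomized neurons, ran from 7.44 to 21.9 CPM in sham (median 12) and from 36.9 to 78.9 in SNI (median 52.0). It rose 4.01-fold (adjusted p = 2.03e-06, SE 0.17 on the log2 scale). Sprr1a (ENSMUSG00000050359, chromosome 3, 92483952 to 92485895), a small proline-rich protein that promotes axon outgrowth, rose from a sham median of 1.74 CPM (range 0.619 to 12.2) to 44.4 in SNI (range 30.1 to 73.9), a log2 fold change of 3.90 (adjusted p = 3.55e-05, SE 0.43). Both genes separated the surgery groups fully, and the SNI libraries of saline mice were tightly grouped (Sprr1a 41.1 to 45.5 CPM) while those of DMI mice spread from 30.1 to 73.9. The receptor genes Gpr151 (3.93-fold), an orphan receptor of sensory neurons, and Cckbr (6.75-fold), a receptor for cholecystokinin, rose as well, as did Ecel1 (5.66-fold), an endopeptidase-like protein of injured neurons. Fgf3, a fibroblast growth factor, rose 4.29-fold at a low level (0.25 to 0.686 CPM in sham and 1.45 to 3.53 in SNI). Smaller but equally separated changes were those of Star (1.72-fold), which carries cholesterol into mitochondria, and the microtubule regulator Stmn4 (1.70-fold). Rhoc, a small GTPase, and Cd63, a tetraspanin of late endosomes, each rose only 1.29-fold. The libraries lay close together within each treatment, with sham over both treatments at 54.9 to 77.4 and SNI at 75.7 to 95.1 CPM for Rhoc. Ctla2a rose 2.11-fold, but it has a close copy in the genome and overlaps 2 other gene models, so its reads are uncertain.

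**Figure D1:**
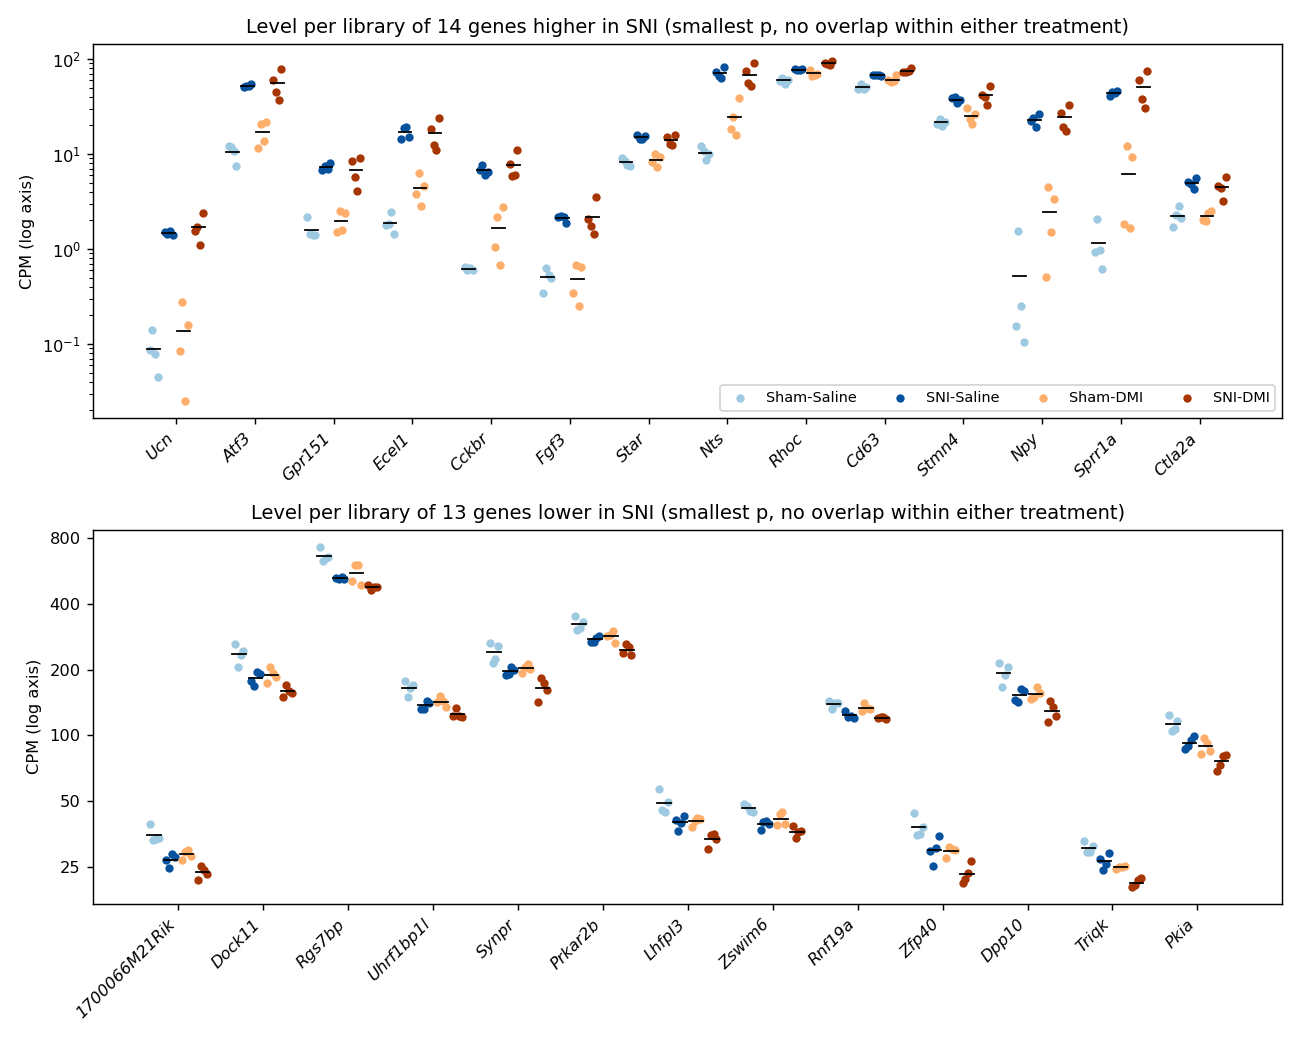
Level in CPM on a log axis in each of the 16 libraries (points) and the mean of each group of 4 (lines) for 14 of the 15 genes higher (top) and 13 of the 15 lower (bottom) in SNI, in the order of p. In the top panel the SNI points of Ucn, from 1.09 to 2.41 CPM, stand clear of the sham points, which do not exceed 0.275, and in the bottom panel the groups lie close together and the mean of DMI mice sits below that of saline mice with the same surgery in each gene.

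Of 18 receptor and growth-effector genes of injured neurons 12 were called, all higher, with a median log2 fold change of 0.43. Of 16 regeneration-associated transcription factors 5 were higher and 1 was lower. Besides Atf3 the higher genes included Sox11 (log2 fold change 0.45, adjusted p = 0.00695), Jun (0.29, adjusted p = 0.00908) and Cebpb (0.39, adjusted p = 0.0162), and the lower gene was Klf7, named for its direction after the values were seen. Jun shares its locus with Junos on the opposite strand, and since the strand setting of the counting was not given in the sources used here, reads of such pairs cannot be told apart. The growth cone protein Gap43 rose from 261 ± 27 CPM (SD, n = 8) in sham to 325 ± 25 in SNI. Without the 2 Sham-DMI libraries with raised injury genes, 12 of the 18 effectors and 6 of the 7 peptides were called.

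The start sites of these genes were compared with the binding motifs of the factors named above, since Atf3 and Jun form dimers that bind AP-1 and CRE motifs. Promoters of 300 bases, 250 before and 50 after the RefSeq start site in GRCm38.p6, were found for 11 of the 15 higher genes and 9 of the 15 lower genes. They were searched on both strands for TGANTCA (AP-1) and TGACGTCA (CRE), neither of which contains the other. AP-1 was present in 4 of the 12 promoters of the higher genes (Sprr1a, Nts and 2 start sites of Ctla2a that share a match) and in 0 of the 11 promoters of the lower genes, and 7.81% of all 32851 promoters held it. CRE was present in 1 of the 12 (Ucn) and 1 of the 11 (1700066M21Rik), against 1.79% of all. A match is a description of the letters and not a site of binding. The 3 promoters below are shown because they hold these matches in genes with the largest increases, in capitals, on the minus strand and 5′ to 3′.
Sprr1a, chr3:92485832-92486131: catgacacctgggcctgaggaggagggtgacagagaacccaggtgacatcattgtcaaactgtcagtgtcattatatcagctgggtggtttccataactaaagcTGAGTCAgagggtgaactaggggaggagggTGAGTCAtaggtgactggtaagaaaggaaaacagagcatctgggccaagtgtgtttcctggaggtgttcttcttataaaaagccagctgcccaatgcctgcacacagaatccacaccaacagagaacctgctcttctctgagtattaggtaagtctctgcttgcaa
Nts, chr10:102490369-102490668: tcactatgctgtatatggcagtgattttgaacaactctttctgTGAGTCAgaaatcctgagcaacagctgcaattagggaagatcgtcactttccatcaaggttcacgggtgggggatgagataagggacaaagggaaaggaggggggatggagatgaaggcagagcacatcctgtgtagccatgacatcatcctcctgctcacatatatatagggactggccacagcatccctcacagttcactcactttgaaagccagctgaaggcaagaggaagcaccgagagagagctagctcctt
Ucn, chr5:31138846-31139145: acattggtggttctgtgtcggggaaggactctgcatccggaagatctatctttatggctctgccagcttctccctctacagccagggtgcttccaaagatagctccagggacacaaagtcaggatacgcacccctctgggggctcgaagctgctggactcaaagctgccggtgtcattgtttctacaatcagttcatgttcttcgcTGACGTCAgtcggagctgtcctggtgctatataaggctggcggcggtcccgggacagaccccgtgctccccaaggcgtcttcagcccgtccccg
The first AP-1 match of Sprr1a starts 146 bases before the start site and the other 116 bases before it, that of Nts 207 bases before it, and the CRE match of Ucn 44 bases before it.

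By size of change, the 8 highest genes with a mean of at least 1 CPM in SNI were Npy, Sprr1a, Ucn, Lipn, 1700047I17Rik2, Myh1, Cckbr and Cxcl9. Lipn, a lipase gene best known from skin, went from at most 0.252 CPM in sham to 0.363 to 1.45 in SNI (log2 fold change 3.63, adjusted p = 7.37e-05). In 1700047I17Rik2, of unknown function, the SNI libraries spread from 0.0904 to 2.78 CPM and overlapped the shams. Myh1, a myosin of fast skeletal muscle, was at 6.83 CPM in SNI-DMI replicate 2 and at 1.29 in SNI-Saline replicate 2, against a highest sham value of 0.187. Its call was lost without the libraries richest in muscle transcripts. Skeletal muscle markers ran from 2.29 to 49.2 summed CPM in sham and from 2.77 to 276 in SNI, and 1 of the 6 tested was called. When 1 library was left out, the count ran from 1 to 5 and the median log2 fold change of the list from 0.35 to 3.31.

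The decreases were shallow. The 15 lower genes that separated within both treatments, by p, included 1700066M21Rik, Dock11, Rgs7bp, Uhrf1bp1l, Synpr, Prkar2b, Lhfpl3, Zswim6, Rnf19a, Zfp40, Dpp10, Triqk and Pkia, with log2 fold changes from -0.35 (Zfp40) to -0.16 (Rnf19a). Rgs7bp, which anchors RGS proteins at the membrane, ran from 490 to 733 CPM in sham (median 618) and from 462 to 534 in SNI (median 504), a log2 fold change of -0.28 (adjusted p = 0.00358, SE 0.05). Prkar2b, a regulatory subunit of protein kinase A, went from 305 ± 28 CPM (SD, n = 8) to 262 ± 19 (adjusted p = 0.00393). In each of the 15 the 8 SNI and 8 sham libraries overlapped over both treatments, and the mean of DMI mice lay below that of saline mice with the same surgery in all 15. Synpr, Dpp10 and Triqk lost their call when trends on GC content and length were removed. Synpr overlaps a gene on the opposite strand.

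The 7 lower genes without overlap over both treatments, named after their values were seen, were Prkg2, Dyrk1a, F2rl2, Fam149a, Gm44021, Gm28523 and Gm37784, with log2 fold changes from -1.05 (Gm44021) to -0.13 (F2rl2 and Fam149a). Prkg2 is a cGMP-dependent kinase and F2rl2 a protease-activated receptor. Among lower genes with a mean of at least 1 CPM in sham, the largest decrease of a protein-coding gene was that of Kcng3, a modifier subunit of Kv2 potassium channels. It ran from 3.75 to 8.99 CPM in sham (median 6.84) and from 2.28 to 6.17 in SNI (median 3.08), a log2 fold change of -0.84 (adjusted p = 0.0194, SE 0.20). The ranges overlapped, with SNI-Saline replicate 3 the highest of the SNI libraries. The other 7 were the mitochondrial tRNA genes mt-Tn, mt-Ta and mt-Tc and the pseudogenes Gm10224, Gm5734, Gm10925 and Gm28437, with log2 fold changes from -0.92 to -0.71. These tRNAs are too short for reliable recovery in mRNA libraries and pseudogene reads can come from near-identical copies, so these values are uncertain.

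Sensory neuron markers were read by type, against the 7.96% of all genes that were lower. In the class of highest mean level 19.8% of genes were lower, and in the longest class by exon length 22.7%. Of the 9 markers of non-peptidergic nociceptors, the C-fibre neurons that end in the skin, 7 were called and all were lower, with a median log2 fold change of -0.20. In bulk tissue, fewer cells of a type and less RNA per cell cannot be told apart. Mrgprd, the receptor that defines most of these cells, ran from 152 to 245 CPM in sham (median 191) and from 125 to 172 in SNI (median 139), a log2 fold change of -0.43 (adjusted p = 0.00674, SE 0.08). The others named were Scn10a (-0.19, adjusted p = 0.0244), Cd55 (-0.21, adjusted p = 0.0266) and Scn11a (-0.20, adjusted p = 0.0357). Scn10a and Scn11a are also on the list of voltage-gated sodium channels below, so they count in both lists. Of 8 peptidergic markers 0 were called, and the values with the smallest p were those of the peptides Tac1 (0.18, adjusted p = 0.156) and Calca (0.11, adjusted p = 0.187). Their median was 0.07. Pruriceptor markers, of itch neurons, were lower in 2 of 6 (Il31ra and Cysltr2), C-fibre touch receptor markers in 2 of 5 (P2ry1 and Zfp521) and A-fibre markers in 3 of 12 (Ntrk3, Scn1a and Cntnap2). The A-fibre calls fell to 0 with trends on GC content and length removed, and also without replicate 2 of SNI-Saline or Sham-DMI or replicate 1 of Sham-Saline, and the pruriceptor calls to 0 without Sham-DMI replicates 2 and 4. The pan-neuronal markers had a median of -0.04, with Thy1 higher and Elavl4 lower. Of the 16 fits that left out 1 library, Thy1 kept its call in 6 and Elavl4 in 11.

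Ion channel genes were called lower or not at all in the 3 lists tested. The lists do not hold every channel gene. Kcnk16, a potassium channel gene outside them, was higher without overlap between SNI and sham (log2 fold change 1.745, adjusted p = 0.000238). Voltage-gated sodium channels were lower in 6 of 13 and potassium channels in 9 of 28, with medians of -0.20 and -0.17, and voltage-gated calcium channels in 4 of 15, with a median of -0.12. Of all genes 7.96% were lower, and of the longest class by exon length 22.7%. The part of exon length in these counts was not tested. The medians in saline and DMI mice were -0.23 and -0.14 for sodium, -0.17 and -0.13 for potassium and -0.22 and -0.01 for calcium channels. In DMI mice by themselves 0 genes of each list were called, where 0.402% of all genes were. The non-peptidergic nociceptor, macrophage and MHC class I lists had 0 calls there as well. The sodium channel count was 10 without Sham-DMI replicate 1 or 4. The calcium channel count was 1 without Sham-Saline replicate 3, SNI-Saline replicate 1 or 2 or Sham-DMI replicate 2, and 2 without replicate 4 of SNI-Saline, replicate 3 of SNI-DMI, or replicate 1 or 4 of Sham-Saline. Scn9a, a channel whose loss abolishes pain, was at 358 to 658 CPM in sham and 368 to 500 in SNI (-0.31, adjusted p = 0.0194) and Scn7a, a sodium sensor, fell by 0.22 on the log2 scale. The large-conductance potassium channel Kcnma1 fell by 0.25 (adjusted p = 0.0079), the delayed rectifier Kcnb2 by 0.38 (adjusted p = 0.0152), and the G-protein-gated channel Kcnj3 by 0.22 (adjusted p = 0.021), a call lost without the libraries richest in muscle transcripts. Of calcium channel genes, the beta subunit Cacnb4 fell by 0.34 (adjusted p = 0.0162). Cacna1c, Cacna1b and Cacna1a had values from -0.22 to -0.12 and adjusted p from 0.0448 to 0.0933, and each of them lost its call in at least 6 alternative analyses. Of the 7 opioid genes, 4 were lower, all of them receptors. The delta receptor Oprd1 went from 18 ± 2.9 to 13.9 ± 2.5 CPM (-0.38, adjusted p = 0.0172), kappa Oprk1 from 3.89 ± 0.72 to 3.01 ± 0.35 (-0.37, adjusted p = 0.0375), nociceptin Oprl1 from 28.4 ± 2.1 to 25.1 ± 2.2 (-0.18, adjusted p = 0.0621) and mu Oprm1 from 18.5 ± 5.8 to 13.2 ± 3.2 (-0.47, adjusted p = 0.0841). The ranges of Oprm1 overlapped widely, from 9.39 to 25 CPM in sham and 9.42 to 18.7 in SNI. The opioid count was 2 without any 1 of Sham-Saline replicate 1, SNI-Saline replicate 2, Sham-DMI replicates 2 and 3 and SNI-DMI replicate 2.

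All 16 tested genes of MHC class I and the immunoproteasome, which cut and display peptides of the cell's own proteins, were called and higher, with a median log2 fold change of 0.69. Psmb8, an immunoproteasome subunit, ran from 9.54 to 14.2 CPM in sham (median 11.9) and from 14.2 to 28.5 in SNI (median 19.3), a log2 fold change of 0.78 (adjusted p = 0.00872, SE 0.16). The peptide transporter Tap2 (0.47, adjusted p = 0.0078), the non-classical molecule H2-T23 (0.81, adjusted p = 0.00924) and the proteasome activator Psme2 (0.28, adjusted p = 0.0103) moved the same way. Psmb8 and Tap2 overlap a gene model on the opposite strand. The list held at 14 of 16 with trends on GC content and length removed, at 15 of 16 without the libraries richest in muscle transcripts and at 13 of 16 without Sham-DMI replicates 2 and 4. Its summed level was highest in SNI-Saline replicate 2, at 1768 CPM, where the other 7 SNI libraries were at 835 to 1212 and the shams at 662 to 910. MHC class II genes, which serve antigen-presenting cells, were higher in 7 of 10, with H2-Aa (log2 fold change 0.57, adjusted p = 0.029) and H2-Eb1 (0.58, adjusted p = 0.0323) in front. This count was 2 without SNI-Saline replicate 2, Sham-DMI replicate 2 or SNI-DMI replicate 1, 3 without Sham-Saline replicate 1 or SNI-DMI replicate 4, and 4 without replicate 3 of Sham-Saline or Sham-DMI.

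Of 26 interferon-stimulated genes 20 were higher and 0 lower, with a median log2 fold change of 0.47. Bst2, a membrane protein that tethers virus particles, ran from 10.2 to 15.3 CPM in sham (median 12.7) and from 16.5 to 39 in SNI (median 23.7), a log2 fold change of 0.98 (adjusted p = 0.00393, SE 0.17). Its groups did not overlap. Gbp2, a guanylate-binding protein, had the widest spread. It was at 9.44 to 19.8 CPM in sham and from 14.9 (SNI-DMI replicate 2) to 169 (SNI-Saline replicate 1) in SNI, with a log2 fold change of 1.91 (adjusted p = 0.00863, SE 0.39). Gbp3 (1.11, adjusted p = 0.00872) and the ubiquitin-like Isg15 (0.87, adjusted p = 0.00936) followed. Sham libraries had 554 to 736 summed CPM of the list and SNI libraries 600 to 994, so the surgery groups overlapped. The median of the list was 0.33 in saline and 0.61 in DMI mice.

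Macrophage markers were higher in 12 of 17, with a median of 0.67, and lower in 1, Cd163, a scavenger receptor of resident macrophages that was named after its values were seen. Trem2, a receptor of phagocytic macrophages, ran from 1.18 to 2.13 CPM in sham (median 1.57) and from 2 to 5.12 in SNI (median 3.47), a log2 fold change of 1.07 (adjusted p = 0.00228, SE 0.18). The complement subunits C1qa, C1qb and C1qc rose 1.69-, 1.69- and 1.62-fold. They are also on the list of complement genes, of which 8 of 16 were higher, C4b among them (log2 fold change 0.42, adjusted p = 0.0181), and 1 was lower, the complement inhibitor Cd55 that is also a nociceptor marker. Chemokine genes were higher in 8 of the 14 tested, led by Cxcl14 (1.75, adjusted p = 0.000244), Cxcl10 (1.84, adjusted p = 0.00414), Ccl12 (0.81, adjusted p = 0.00936) and Cxcl9 (2.74, adjusted p = 0.0114). Cxcl9 ran from 0.126 to 3.02 CPM in sham and from 0.907 to 14.7 in SNI, with the ranges overlapping. Csf1, the growth factor of macrophages, ran from 21.1 to 27.4 CPM in sham and from 26.9 to 42.4 in SNI (log2 fold change 0.52, adjusted p = 0.000869), and Tgfb1 and Il34 were the other called genes among 10 cytokines. Only 1 of the 10 was called without the libraries richest in muscle transcripts, Tgfb1 was not called without Sham-DMI replicates 2 and 4 either, and Il34 kept its call in 5 of the 16 fits that left out 1 library.

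Markers of other leukocytes are to be read against the 15.1% of all genes that were called. T and NK cell markers were higher in 3 of 12 (Cd3g, Cd8a and Ncr1, each below 1 CPM in every library), with a median of 0.53. Ncr1 kept its call in 4 of the 16 fits that left out 1 library, and without Sham-DMI replicates 2 and 4 only 1 of the 12 was called, Cd8a no longer among them. Dendritic cell markers were higher in 1 of 8 (Itgax, not called without Sham-DMI replicates 2 and 4), and neutrophil and mast cell markers were called in 0 of 12 and 0 of 6, where Mmp9 had -0.36 (adjusted p = 0.239) and Cpa3 had -0.07 (adjusted p = 0.847). B-lineage markers were lower in 2 of 7, and these were the transcription factors Ebf1, at 168 ± 16 CPM in sham and 147 ± 5.7 in SNI, and Pax5 (adjusted p = 0.0935). Ebf1 held most of the summed level of the list, at 147 to 188 CPM in sham, where the list was at 150 to 192. The median of the list was -0.58 in saline mice, with 3 calls, and 0.16 in DMI mice, with 0 calls. Of all genes 12% were called in saline mice and 0.402% in DMI mice. Pax5 kept its call in 5 of the 16 fits that left out 1 library, and with trends on GC content and length removed 0 of the 7 were called.

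**Figure D2:**
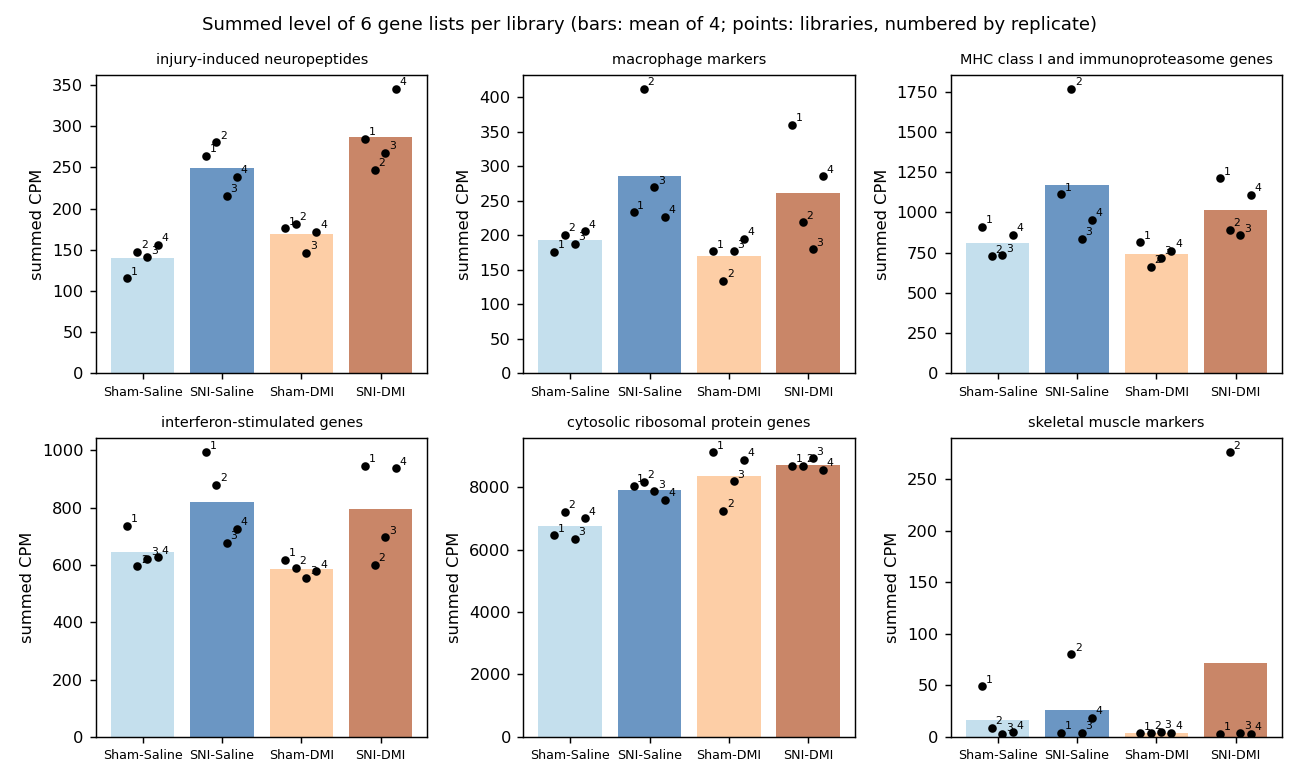
Summed CPM of 6 gene lists in each library (points, numbered by replicate) and the mean of each group of 4 (bars). The neuropeptide list parts SNI (216 to 345 CPM) from sham (115 to 181), the macrophage, MHC class I and interferon lists are higher in SNI on average with overlap or with single high libraries such as SNI-Saline replicate 2, and the muscle list is dominated by SNI-DMI replicate 2.

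Glial and stromal markers were called in shares from 0 to 40%, against 15.1% of all genes. Of 12 satellite glia markers 3 were higher: Apoe, a lipid carrier (log2 fold change 0.25, adjusted p = 0.0174), Glul, which makes glutamine (0.12, adjusted p = 0.0229), and Gfap, a filament of reactive glia (0.61, adjusted p = 0.0456). With trends on GC content and length removed 1 was called. Markers of repair Schwann cells were higher in 4 of 10, with Gap43, which neurons also make, Olig1 (1.48, adjusted p = 0.018), Gdnf and Artn (2 of 10 once SNI-Saline replicate 2 or replicate 1 of Sham-Saline was left out), and myelinating Schwann cell markers in 1 of 12 (Ncmap). Olig1, Gdnf and Artn were low, at no more than 1.04, 0.766 and 0.471 CPM in any library, with overlapping ranges in sham and SNI. Endothelial markers were higher in 1 of 10 (Emcn), fibroblast markers in 1 of 10 (Col3a1) and pericyte markers in 0 of 8. Of the 16 fits that left out 1 library, Emcn kept its call in 8, Col3a1 in 13 and Ncmap in 5, and all 3 lost it without the libraries richest in muscle transcripts, as Col3a1 did without Sham-DMI replicates 2 and 4. Among 44 collagen genes 9 were higher and 0 lower. Col5a3 (ENSMUSG00000004098, chromosome 9, 20770050 to 20815067), a fibrillar collagen, ran from 200 to 227 CPM in sham (median 215) and from 270 to 349 in SNI (median 291), without overlap, with a log2 fold change of 0.48 (adjusted p = 3.65e-05, SE 0.05). Col18a1, Col27a1 and Col16a1 followed with 0.46, 0.49 and 0.25. Proliferation genes were higher in 4 of 15, led by the topoisomerase Top2a (1.18, adjusted p = 0.0187), and the count was 1 without SNI-Saline replicate 2 and 2 without any 1 of Sham-Saline replicates 1 and 3, SNI-Saline replicate 4, Sham-DMI replicate 2 and SNI-DMI replicates 1 and 4.

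Some lists of stress and housekeeping genes were read as well, against the 15.1% of all genes that were called. Of 10 glucocorticoid-responsive genes 4 were higher, among them the metallothioneins Mt1 (log2 fold change 0.41, adjusted p = 0.00111) and Mt2 (0.45, adjusted p = 0.00364), which bind zinc, with Mt2 at 4.88 to 6.94 CPM in sham and 7.58 to 9.14 in SNI. Of 14 clock genes only Clock was called (-0.27, adjusted p = 0.00678), of 15 immediate early genes only Nr4a1 (0.21, adjusted p = 0.0659, called in 12 of those fits), of 18 cholesterol synthesis genes only Sc5d (-0.10, adjusted p = 0.0684, called in 6 of the 16 fits that left out 1 library), and of 15 integrated stress and unfolded protein genes none by edgeR. In the last list Ppp1r15a (0.15) and Atf4 (0.12) had the smallest p, with adjusted p of 0.144 and 0.153. Cytosolic ribosomal protein genes were higher in 46 of 81 and nuclear respiratory chain genes in 27 of 77, with slight medians of 0.16 and 0.12. Their counts moved with the processing. With trends on GC content and length removed 6 of 81 and 6 of 77 were called, without SNI-Saline replicate 2 it was 23 and 11, without Sham-DMI replicate 2 it was 26 and 11, without Sham-Saline replicate 1 it was 24 and 12, without Sham-Saline replicate 3 it was 26 and 13, without SNI-Saline replicate 1 it was 28 and 12, and without the libraries richest in muscle transcripts 1 of 81 and 0 of 76. The respiratory chain count was also 17 without SNI-Saline replicate 4 and 44 without Sham-DMI replicate 1. Their medians were 0.24 and 0.22 in saline mice and 0.07 and 0.03 in DMI mice. The 13 mitochondrially encoded protein genes had 0 calls and a median of -0.10. Red cell and adipocyte markers had 0 calls, and 1 of 5 astrocyte and motor neuron markers was higher (Aldh1l1, which satellite glia also express).

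**Figure D3:**
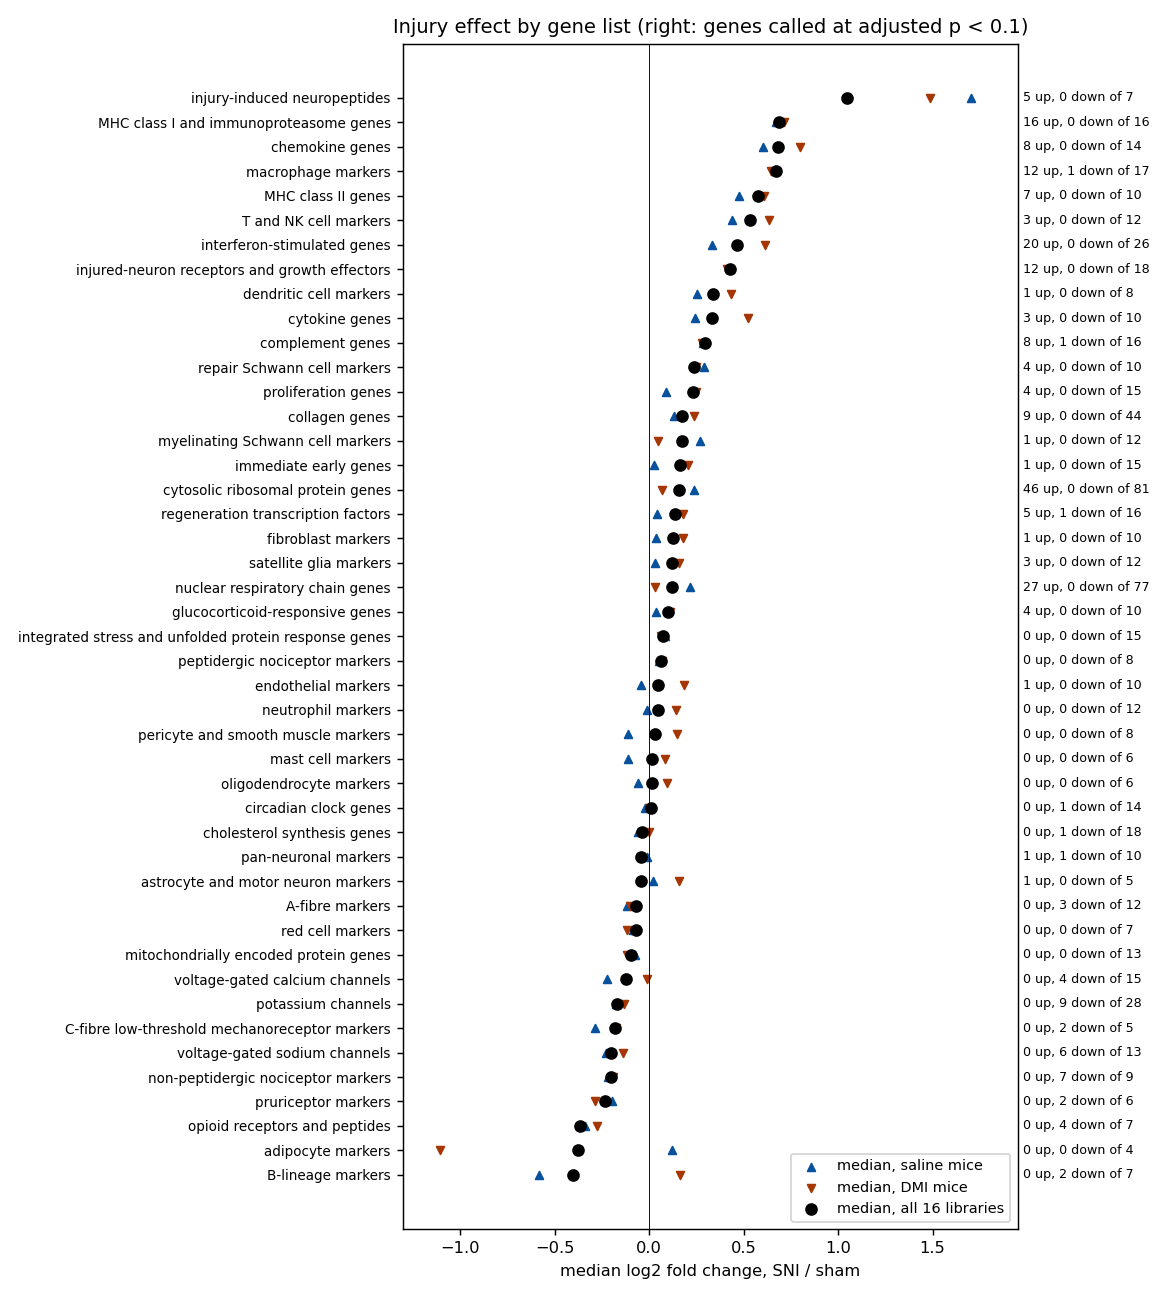
Median log2 fold change of SNI over sham for 45 gene lists (the skeletal muscle list, with a median of 2.45, is left out) over all 16 libraries (circles) and within saline (upward triangles) and DMI mice (downward triangles), with the number of genes called at the right. Neuropeptide, antigen presentation, chemokine and macrophage lists lie to the right and non-peptidergic nociceptor, channel and opioid lists to the left.

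The injury effect was next split by treatment. In saline mice alone 2571 genes (12%) were called and in DMI mice 86 (0.402%), although the median SE was 0.11 in each, and the test of the difference between the injury effects called 0 genes by edgeR and 16 by DESeq2, with 1692 genes at an unadjusted p under 0.05. These counts alone do not show that the effects differed. The saline count was between 682 and 1616 without any 1 of Sham-Saline replicates 1, 3 and 4 and SNI-Saline replicates 1, 2 and 4. The DMI count was between 17 and 56 without Sham-DMI replicate 2 or 3 or SNI-DMI replicate 1 or 4, and between 142 and 850 without Sham-DMI replicate 1, SNI-DMI replicate 2 or 3 or Sham-Saline replicate 1. Genes chosen in 1 treatment were read in the other, which shares no library with it. The median where genes were chosen is inflated by the choice, so its gap to the other median does not measure a difference between treatments. The 1250 genes higher in saline mice had a median log2 change of 0.26 there and of 0.08 in DMI mice. In DMI mice 84.2% of them were above 0, against 50.2% of all genes, and 61 were called. The 1321 lower genes had -0.27 and -0.11, with 88.6% below 0, against 49.8% of all genes, and 1 called. The 80 genes higher in DMI mice had 0.79 there and 0.73 in saline mice, with 97.5% above 0, against 49.9% of all genes, and 61 called. Over all 21371 genes, which are not independent, the log2 fold changes of both treatments had a Spearman correlation of 0.33 and 64.3% had the same sign.

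Of the 15 higher genes listed above 14 had the larger log2 fold change in saline mice, with medians of 2.19 and 1.70. The 15 were chosen by p on these values and share the same libraries, so they are not 15 separate observations. Their count is no test of a difference between treatments, for which edgeR called 0 genes. Npy had 5.41 in saline and 3.26 in DMI mice, Sprr1a 5.23 and 2.97, and Ecel1 3.16 and 1.90. The mean of Npy after injury was 22.9 CPM in saline and 24.2 in DMI mice, and its mean in sham mice was 0.516 and 2.46. The raised levels of Sham-DMI replicates 2 and 4 moved with these gaps, and their part in them was not tested. Fgf3, the exception, had 2.06 and 2.14, and these 2 libraries, at 0.686 and 0.646 CPM, were its highest shams by a narrow margin over Sham-Saline replicate 2 at 0.635. The 5 genes with the smallest p for the difference were Sh3pxd2b, an adaptor of cell protrusions (log2 fold change -0.19 in saline and 0.23 in DMI mice), Neto2 (-0.44 and 0.11), Cflar (-0.20 and 0.10), Ostf1 (0.22 and -0.05) and Thsd7a (-0.51 and 0.01), all with an adjusted p of at least 0.590.

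**Figure D4:**
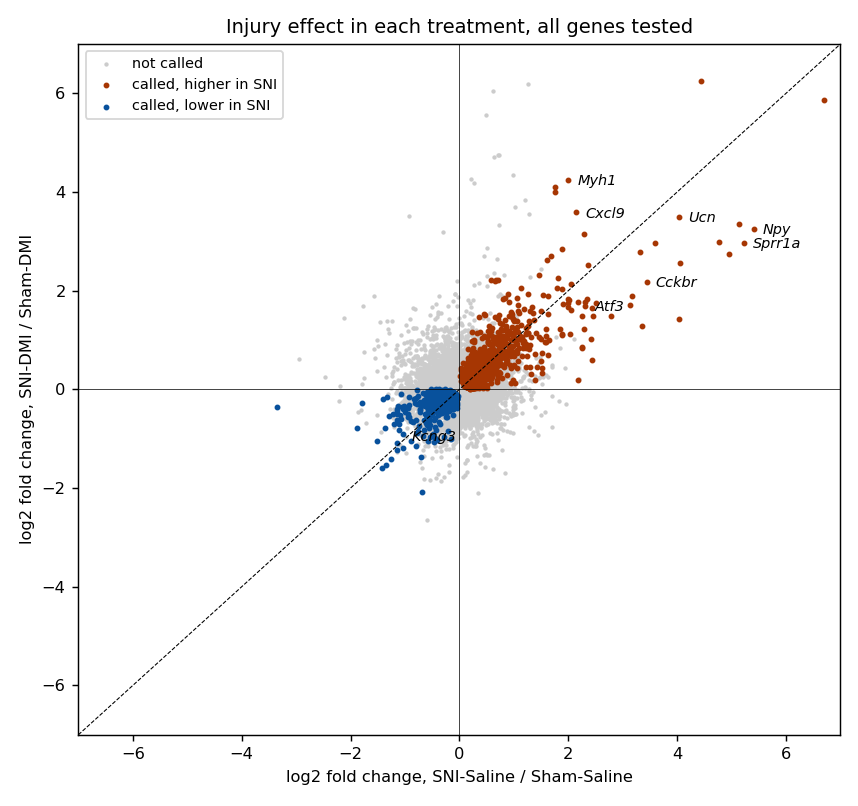
Log2 fold change of SNI over sham in saline mice (x axis) and in DMI mice (y axis) for the 21371 genes tested, with genes called in the comparison of all 16 libraries in colour and equality as a dashed line. The called genes were chosen on both treatments together, so their like signs are no result. Npy (5.41 and 3.26) lies below the line while Myh1 (2 and 4.25) lies above it.

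Using both treatments reached genes that neither treatment reached by itself. Of the 3220 genes 1801 were also called in saline mice and 83 in DMI mice, and 1398 (701 higher and 697 lower) in neither. The higher genes with the smallest p among the 1398 were Ifit3, an interferon-induced inhibitor of viral translation, Gsdmd, the pore former of pyroptosis, Tmem88b, Sla, an adaptor of immune receptors, and the peptide gene Nms. Ifit3 ran from 8.84 to 14.8 CPM in sham and from 13.1 to 32.9 in SNI (log2 fold change 0.82, adjusted p = 0.0112), and Gsdmd from 3.30 to 4.67 and from 4.37 to 6.03 (0.42, adjusted p = 0.0123). The lower genes were Ldlrad4, Fam81a, Herc3, Cacng2 and Oprd1, with log2 fold changes from -0.38 to -0.17. Cacng2, a partner of AMPA receptors, ran from 22.5 to 27.2 CPM in sham and from 18.2 to 24.3 in SNI. In contrast, 770 genes were called in saline mice and not over all 16 libraries.

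Called genes differed in length and base composition by direction. In the longest 20% of genes by exon length (above 6482 bases) 22.7% were lower in SNI and 3.09% higher, while in the shortest 20% (below 1394 bases) 1.43% were lower and 7.52% higher. By GC content of the exons the lowest 20% (below 43.8%) had 18.7% lower and 2.65% higher, and the highest 20% (above 55.1%) 1.71% and 11.3%. By mean level the highest 20% had 19.8% lower and 7.7% higher, and the lowest 20% 1.3% and 3.4%. Such trends also ran between single libraries. For this, each gene's deviation from its own mean over the 16 libraries was averaged in the longest and shortest 20% of genes. In the 4 Sham-Saline libraries this mean deviation was higher in the longest class than in the shortest, by 0.08 to 0.26 on the log2 scale. In the 4 SNI-DMI libraries it was lower, by 0.09 to 0.15. The difference ran from -0.05 to 0.05 in SNI-Saline and from -0.17 to 0.05 in Sham-DMI libraries, where replicate 1 was lower than any SNI-DMI library. When each library's trend on GC content and length was removed, 2023 genes were called, 728 higher and 1295 lower, so that the share of higher genes went from 47.2% to 36%. Of the 3220 genes 1519 were still called (627 higher and 892 lower), and 984 were called also in every fit that left out 1 library (511 higher and 473 lower). The part of these trends in the calls was not tested.

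**Figure D5:**
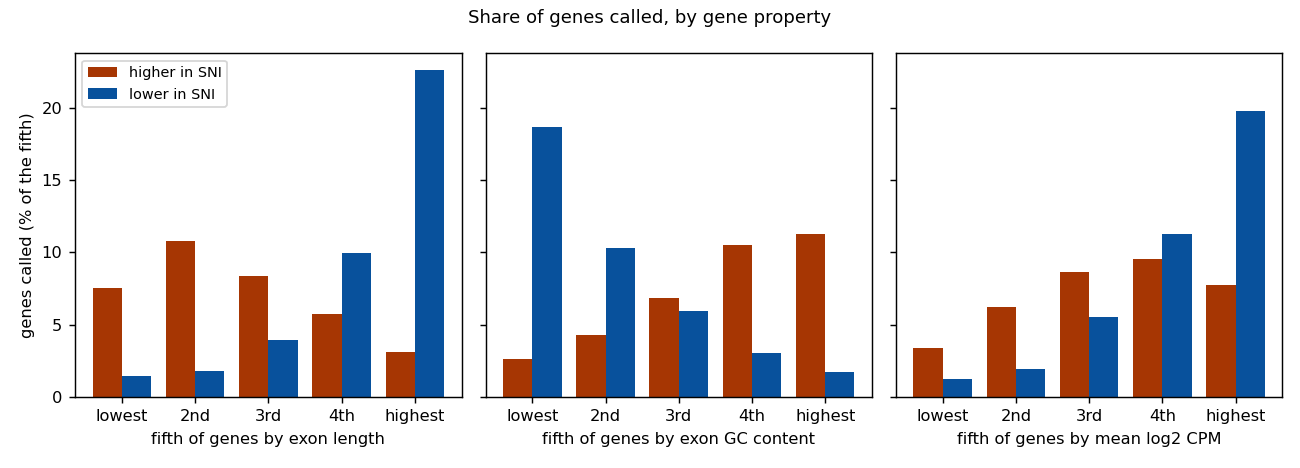
Percent of genes called higher and lower in SNI in 5 equal classes of the tested genes by exon length, exon GC content and mean level. Lower genes concentrate in the longest class (22.7%), the class of highest mean level (19.8%) and the class of lowest GC content (18.7%), and higher genes in genes of high GC content (11.3%).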

How the data were processed

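Per the labels and methods, the authors isolated RNA from flash-frozen L3 to L6 DRGs with TRIzol, made libraries with the Illumina Stranded mRNA Prep kit and sequenced them in paired reads. The submitters' processing notes name mm10, HISAT2, HTSeq and DESeq2. The versions of HISAT2 and HTSeq, the annotation release and the strand setting are not given in the sources used here. The deposited values are raw counts per Ensembl gene, without normalization. The 5 lines of unassigned reads in each file (18.8% to 20.4% of read pairs) were left out. Symbols, coordinates and lengths are from GENCODE M21 (GRCm38), which holds 52489 of the 52636 genes.

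Genes were kept with filterByExpr on the 4 groups, scaled by TMM and tested in R 4.3.3 with edgeR 4.0.16 (glmQLFit and glmQLFTest, treatment plus surgery, all 16 libraries), with Benjamini-Hochberg adjustment over 21371 genes and a threshold of 0.1. A log2 fold change of 0.32 is the cut-off of the study. Effects within a treatment and their difference came from a fit with 1 coefficient per group. The SE is the one implied by the F statistic. The members and gene lists were chosen with earlier results of these data known. Described genes were chosen as (a) the 15 called genes with the smallest p in each direction that did not overlap within either treatment, (b) the 8 with the largest change at 1 CPM or more, (c) 5 for the difference, (d) 5 in each direction called in neither treatment, and (e) up to 4 called genes of each list, or 2 with the smallest p where none was called. DESeq2 1.42.0, limma-voom 3.58.1, sva 3.50.0 (1 surrogate variable) and trends fitted with mgcv 1.9.3 (basis size 8) were among the alternatives, with upper-quartile scaling, other filters, the library number, a replicate block, no covariate and each library left out. Leaving out Sham-DMI replicates 2 and 4, or the 3 libraries richest in muscle transcripts, was added after seeing the data.

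Each library is 1 mouse, so p-values reflect the spread between mice. Replicates were not duplicates (chi-square per gene 10.4 to 44.3). On simulated data with 200 changed genes among 21371 the test of the injury main effect recovered 68.6% at a log2 change of 0.5 and 90.8% at 1, and 12.2% of its 181 calls were false. The simulation drew each gene independently, with no treatment effect and no trends on GC content or length. Its rates therefore need not hold for the calls reported here. Some genes chosen by these rules are not reported here. Figures were made with matplotlib.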

Additional observations from a re-analysis of the deposited data

Results flagged for a closer look

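A single library stood apart from the other 3 of its group in 17 of 252 groups of values checked with Dixon's test, where chance flags about 1 in 20. The values covered the CPM of the genes chosen by p, by size, by the difference and by being called in neither treatment, and the summed CPM of 6 lists. Muscle transcripts gave the widest gaps, with 276 summed CPM in SNI-DMI replicate 2 (next 3.86) and 49.2 in Sham-Saline replicate 1 (next 8.58), and Myh1 at 6.83 in SNI-DMI replicate 2 (next 0.28) and 1.29 in SNI-Saline replicate 2 (next 0.308). Among genes higher after injury, Gpr151 was high in Sham-Saline replicate 1 at 2.19 CPM (next 1.43), Npy in Sham-Saline replicate 2 at 1.55 (next 0.249) and Ifit3 in SNI-Saline replicate 1 at 32. Fgf3 was low in SNI-Saline replicate 4 at 1.86 (next 2.17) and Nms in Sham-DMI replicate 4 at 0.11 (next 0.25). Among genes lower after injury, 1700066M21Rik was high in Sham-Saline replicate 1 at 39.2 CPM (next 33.8), Uhrf1bp1l in SNI-DMI replicate 2 at 134 (next 123), Kcng3 in SNI-Saline replicate 3 at 6.17 (next 3.03), mt-Tn in Sham-Saline replicate 4 at 3.32 (next 2.22) and mt-Tc in SNI-DMI replicate 4 at 1.28 (next 0.478). The pseudogenes Gm10925 and Gm28437 were high together in Sham-Saline replicate 3, at 24.7 and 19.6 CPM (next 11.7 and 9.43). Sham-DMI replicates 3 and 4 were high too, at 22.43 and 31.94 CPM of Gm10925 and 19.06 and 26.77 of Gm28437. The other sham libraries held at most 11.7 and 9.43 CPM, and the SNI libraries at most 10.94 and 9.475. Cflar was high in Sham-DMI replicate 2 at 59.9 (next 54.6).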

How the results depend on the processing

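The count of the injury main effect (3220) was 810 with the fold cut-off and 1244 by nominal p with that cut-off, 776 without the treatment covariate, 2023 with trends on GC content and length removed, 1217 without the 3 libraries richest in muscle transcripts, and 1691 to 4750 when 1 library was left out. With the replicate block it was 2871, in saline mice 2106 and in DMI mice 70, but the libraries share only a number (correlation of deviations from -0.07 to 0.18 between libraries of the same number, the highest for its own number in 2 of 8). The count in saline mice (2571) was 869 and 1528 with the fold rules, 28 with library number as a term, 1044 with trends removed, 256 without the muscle-rich libraries, and 682 to 3286 without 1 library. The count in DMI mice (86) was 1156 by nominal p with the fold cut-off, 310 without a filter on low counts, 517 by DESeq2, 0 with library number as a term, 151 with 1 surrogate variable, 216 with trends removed, 9 with the 8 DMI libraries alone, 30 without Sham-DMI replicates 2 and 4, 268 without the muscle-rich libraries, and 17 to 850 without 1 library. The difference of the injury effects (0) was 738 by nominal p with the fold cut-off, 16 by DESeq2, 1 without the muscle-rich libraries, and 0 to 1 without 1 library. Within a treatment the library number and the surgery cannot be told apart. Of 145 called genes among those chosen, 77 kept their call in every alternative. None of these 145 turned its sign in an alternative. Chosen genes with no call that did were Cpa3 (-0.165 to 0.0452 without 1 library, 0.0273 without the muscle-rich libraries), Ms4a2 (-0.307 to 0.063 and 0.0736) and Fabp4 (-0.932 to 0.399 without 1 library, 0.628 without Sham-DMI replicates 2 and 4). The causes were not tested. Depth limits most the genes at low CPM.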
